A study of Mus musculus with 6 samples.

Results

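The genes described here encode 10 neuronal calcium sensor proteins, namely Vsnl1, Hpca, Hpcal1, Hpcal4, Ncald, Ncs1, Necab1, Necab2, Necab3 and Caln1. Members were the array rows whose platform annotation named one of these genes and no other. Each of the 10 genes had 1 such row, among 23410 rows that named at least 1 gene, and 2 further rows that named Hpcal1 together with other genes were left out. The set was chosen by values of this same comparison, since its results, among them the lower values of Necab1, Caln1 and Vsnl1 in the mutants, were known when it was assembled. Its differences between genotypes are therefore given as a description, without p-values, and they support nothing beyond themselves. RNA came from the whole brain of E16.5 mouse embryos, taken from the olfactory bulb to the brain stem. Of the 6 brains, 3 were wild type and 3 were Tdp2Δ1-3, an allele named for the loss of exons 1 to 3 of Tdp2, and the labels list no treatment for either group. The labels name no strain, litter or sex. Tdp2 encodes the phosphodiesterase that removes trapped topoisomerase II from DNA ends, and the comparison addresses which RNAs depend on it during brain development.

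Neuronal calcium sensors are small proteins that bind calcium through EF-hands, helix-loop-helix motifs shared with calmodulin. Many carry a myristoyl group at the amino terminus that is buried at rest and exposed when calcium binds, which moves the protein onto membranes. In neurons they couple calcium signals to receptor traffic, ion channels, lipid kinases and transmitter release, and several become abundant as neurons mature. The Necab proteins pair an EF-hand region with a domain resembling bacterial monooxygenases, and calneurons sit in the Golgi membrane by a tail anchor.

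Each value was a log2 value centred on the median of its row over the 6 arrays, so differences between brains can be read but the abundance of one gene cannot be set against that of another. For the same reason the presence of brain cell types could not be checked from marker levels. Tdp2 itself was lower in all 3 mutants, at -1.05, -0.90 and -0.94, than in all 3 wild types, at 0.90, 1.10 and 1.34. The arrays had similar medians, between -0.011 and 0.014. Mutant replicate 3 stood apart in sex-linked transcripts. Xist, the RNA that silences an X chromosome, was at 6.27 in that array, at 1.17 in mutant replicate 2 and between -0.09 and 0.00 in the other 4. The Y-linked genes Eif2s3y, Kdm5d and Uty were at -4.32, -2.84 and -3.30 in mutant replicate 3 and between -0.07 and 0.20 in the others. None of the 10 sensor genes lies on a sex chromosome, but each sensor gene's difference is given below with and without that array. By these transcripts sex was not balanced between the genotypes, as mutant replicate 3 had a female pattern and no wild type did. The part of sex in the sensor differences was not tested.

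Transcripts of the sensor family were lower in the mutant brains for 9 of the 10 genes, by 1.20-fold for Ncs1 to 1.94-fold for Necab1. Necab3 was the exception, with a value 1.11-fold higher. Over all rows, 10113 of 23410 had a negative difference. After cyclic loess normalization Ncs1 and Necab2 turned sign and 7 genes were lower. The differences of Necab1, Caln1, Vsnl1 and Hpca shrank to -0.68, -0.74, -0.58 and -0.40. That method fits along row averages, which on centred values do not follow abundance, so these changes are hard to read. A row was called when its limma p, adjusted over all 23410 rows by Benjamini-Hochberg, was under 0.05. By that rule 6 members fell, where 6.47% of all rows were called in either direction and 4.13% were called lower. The remaining 4 members did not pass. The median difference of the 10 members, mutant minus wild type, was -0.43 on the log2 scale, against 0.0135 over all rows. In 8 of the 10 members every mutant value lay below every wild-type value, which was so for 12.6% of all rows. With the additional requirement of a 1.5-fold change, Vsnl1, Hpca, Necab1 and Caln1 passed, against 0.453% of all rows called lower. The number of called members depended on single arrays. Leaving out wild-type replicate 1 gave 4, wild-type replicate 2 gave 3 and wild-type replicate 3 again 6. Among the mutants, omitting replicate 1 gave 9, replicate 2 gave 2 and replicate 3 gave 5. Ncald and Necab1 were called in all 6 of these fits. Fewer cells that express a gene and less of its RNA per cell cannot be told apart in whole-brain RNA.

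**Figure D1:**
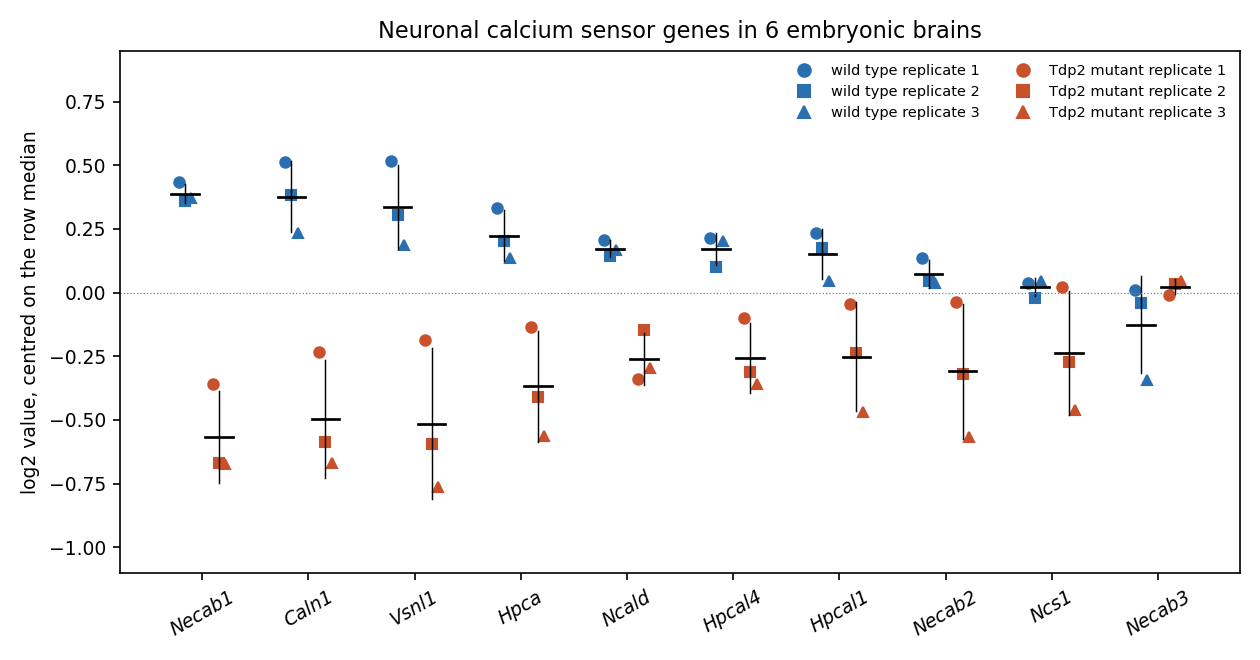
Centred log2 values (vertical axis) of the 10 sensor genes (horizontal axis, ordered by difference) in 3 wild-type (blue) and 3 Tdp2 mutant (orange) brains, with horizontal lines for group means and vertical lines for ± 1 SD. The groups are separated in the 8 genes from Necab1 to Necab2 and overlap in Ncs1 and Necab3.

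Promoters are shown for the called members with an entry in the RefSeq promoter table of GRCm38.p6, and for Necab3, the member with a positive difference. The table held 8 of the 10 genes, without Ncald and Necab1. Each line gives the 250 bases before the start site that lies furthest upstream, 5′ to 3′, and capitals mark matches to the motifs searched.

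The promoter sequences on GRCm38.p6 are as follows.
Vsnl1, chr12:11436579-11436828, minus strand: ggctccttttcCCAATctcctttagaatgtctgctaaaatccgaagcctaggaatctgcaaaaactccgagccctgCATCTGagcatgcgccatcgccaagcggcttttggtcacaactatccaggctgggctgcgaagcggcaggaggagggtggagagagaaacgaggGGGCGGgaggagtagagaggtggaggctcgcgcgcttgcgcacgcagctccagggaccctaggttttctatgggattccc
Hpcal4, chr4:123183254-123183503, plus strand: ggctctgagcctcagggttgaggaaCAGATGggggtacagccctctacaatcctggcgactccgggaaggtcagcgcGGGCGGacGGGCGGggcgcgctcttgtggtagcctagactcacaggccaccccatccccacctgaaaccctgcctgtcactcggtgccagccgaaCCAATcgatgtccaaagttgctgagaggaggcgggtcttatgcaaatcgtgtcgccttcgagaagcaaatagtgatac
Caln1, chr5:130369208-130369457, plus strand: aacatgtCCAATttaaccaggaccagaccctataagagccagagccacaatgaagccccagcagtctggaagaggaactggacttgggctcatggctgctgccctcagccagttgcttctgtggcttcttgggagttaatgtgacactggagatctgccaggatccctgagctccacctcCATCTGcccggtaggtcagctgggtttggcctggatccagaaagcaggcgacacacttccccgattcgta
Hpca, chr4:129121748-129121997, minus strand: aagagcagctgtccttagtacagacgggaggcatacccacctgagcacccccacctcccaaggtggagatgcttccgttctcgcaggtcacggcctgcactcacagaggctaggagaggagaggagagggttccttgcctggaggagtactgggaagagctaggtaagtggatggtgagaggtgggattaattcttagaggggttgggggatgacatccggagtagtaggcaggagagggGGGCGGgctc
Necab3, chr2:154558855-154559104, minus strand: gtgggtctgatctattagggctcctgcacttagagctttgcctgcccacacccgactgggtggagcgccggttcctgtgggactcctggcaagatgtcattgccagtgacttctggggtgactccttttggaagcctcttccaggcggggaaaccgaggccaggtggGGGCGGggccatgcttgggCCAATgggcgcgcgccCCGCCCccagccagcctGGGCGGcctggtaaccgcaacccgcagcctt

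The motifs searched on both strands were the GC box GGGCGG, bound by Sp and Klf factors, the CCAAT box, the TATA box TATAAA, the cyclic AMP response element TGACGTCA and CAGATG, an E-box of the kind bound by proneural factors. No matches of different motifs overlapped. CAGATG was found before Vsnl1, Hpcal4 and Caln1, 3 of the 8 promoters, and in 14.5% of 27025 promoters of the same length. CCAAT was found before Vsnl1, Hpcal4, Caln1 and Necab3, and in 34.5% of all promoters. The GC box was found before 6 of the 8, including Necab3, and in 33% of all promoters. Neither TATAAA, present in 13% of all promoters, nor TGACGTCA, present in 1.6%, was found in the 8 windows. The GC content of the 8 windows lay between 55.2% and 75.6%, with a median of 62.2% against 52.0% over all promoters. These matches describe the letters in the windows only.

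Vsnl1 encodes visinin-like protein, an abundant sensor of cortical and hippocampal neurons that affects the traffic of nicotinic receptors. Its centred values were 0.52, 0.31 and 0.19 in the wild-type brains, against -0.19, -0.59 and -0.77 in the mutants. The groups did not overlap, and mutant replicate 1 was the mutant nearest to the wild types. The difference was -0.85 ± 0.14 (SE, n = 3 per genotype), 1.81-fold lower, and -0.73 without mutant replicate 3. Vsnl1 lost its call without wild-type replicate 2 (difference -0.87) and without mutant replicate 2 (-0.81). Where 2 groups do not overlap, the centring places the nearest wild-type and mutant values at equal distances from 0, so this symmetry in Vsnl1 and other genes is a product of the scale.

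Hippocalcin, the product of Hpca, is concentrated in hippocampal pyramidal neurons, where it takes part in the slow afterhyperpolarization and in removal of AMPA receptors from synapses. Hpca stood at 0.33, 0.20 and 0.13 in the wild-type brains and in the mutant brains at -0.13, -0.41 and -0.56. All 3 mutants lay below the wild types, with mutant replicate 3 lowest. Hpca fell by 0.59 ± 0.11 (SE), 1.51-fold, and the difference was -0.50 without mutant replicate 3. Its call was lost when wild-type replicate 1 (-0.54) or 2 (-0.60) was omitted, and also on omitting mutant replicate 2 (-0.57).

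The hippocalcin-like genes had smaller differences. Hpcal4, which encodes a neuronal sensor known to modulate voltage-gated calcium channels, was at 0.21, 0.10 and 0.20 in the wild-type brains and in the mutant brains at -0.10, -0.31 and -0.36. It fell by 0.43 ± 0.07 (SE), 1.34-fold. Its groups were separate, but its call was lost when wild-type replicate 1 (difference -0.41) or 2 (-0.46) was omitted, and likewise for mutant replicate 2 (-0.40) or 3 (-0.38). Hpcal1, known for its abundance in cerebellar Purkinje cells, was at 0.23, 0.18 and 0.04 in the wild-type brains and in the mutant brains at -0.04, -0.24 and -0.47. Its difference was -0.40 ± 0.10 (SE) and did not pass, although the groups did not overlap. Without mutant replicate 3 it was -0.29, and without mutant replicate 1 it was -0.51 and passed. Hpca and Hpcal1 are close relatives, and the annotation of the array does not say whether probes of one could bind transcripts of the other.

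Ncald encodes neurocalcin delta, a sensor that binds clathrin and the cytoskeleton. Its values were 0.21, 0.15 and 0.17 in the wild-type brains, against -0.34, -0.15 and -0.30 in the mutants. The wild-type values lay within a narrow range, with an SD of 0.03 against 0.10 in the mutants, and mutant replicate 2 rather than replicate 1 was nearest to them. Ncald fell by 0.43 ± 0.06 (SE), 1.35-fold, and by 0.42 without mutant replicate 3. Its call held with any 1 array left out, where the difference ranged from -0.49 to -0.39.

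Ncs1 encodes the sensor first described as frequenin, which is widespread in neurons and acts on phosphatidylinositol 4-kinase and dopamine D2 receptors. Wild-type values were 0.04, -0.02 and 0.05, and the mutants were at 0.02, -0.27 and -0.46. Mutant replicate 1 lay among the wild types, so the groups overlapped. The difference of -0.26 ± 0.11 (SE) did not pass, and it was -0.15 without mutant replicate 3 and -0.39, past the limit, without mutant replicate 1. After cyclic loess normalization the sign turned, to 0.11.

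The Necab genes differed among themselves. Necab1, expressed in subsets of cortical and spinal neurons, was at 0.43, 0.36 and 0.37 in the wild-type brains and in the mutant brains at -0.36, -0.67 and -0.67. It had the widest separation of the 10 genes, with 0.721 between the nearest wild-type and mutant values. Necab1 fell by 0.96 ± 0.08 (SE, n = 3 per genotype), 1.94-fold, and by 0.90 without mutant replicate 3. It kept its call with any 1 array left out.

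Necab2, whose product binds adenosine and metabotropic glutamate receptors, was at 0.14, 0.05 and 0.04 in the wild-type brains and in the mutant brains at -0.04, -0.32 and -0.57. The groups were separated by only 0.0764 and the mutants were spread out, with an SD of 0.27 against 0.05 in the wild types. The difference of -0.38 ± 0.12 (SE) did not pass. It was -0.25 without mutant replicate 3, -0.52 and past the limit without mutant replicate 1, and 0.0281 after cyclic loess, where its sign turned. Necab3, whose product binds an amyloid precursor adaptor of the X11 family, was at 0.01, -0.04 and -0.35 in the wild-type brains and in the mutant brains at -0.01, 0.03 and 0.05. Its groups overlapped and only wild-type replicate 3 lay apart. The difference of 0.15 ± 0.09 (SE) did not pass, and it was 0.04 without wild-type replicate 3 and 0.14 without mutant replicate 3.

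Caln1 encodes calneuron, a calcium-binding protein that restrains phosphatidylinositol 4-kinase at the Golgi until calcium rises. It was at 0.51, 0.38 and 0.23 in the wild-type brains and in the mutant brains at -0.23, -0.59 and -0.67. All mutants lay below all wild types, with mutant replicate 1 nearest. Caln1 fell by 0.87 ± 0.12 (SE), 1.83-fold, and by 0.79 without mutant replicate 3. It lost its call only when mutant replicate 2 was left out (difference -0.83).

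**Figure D2:**
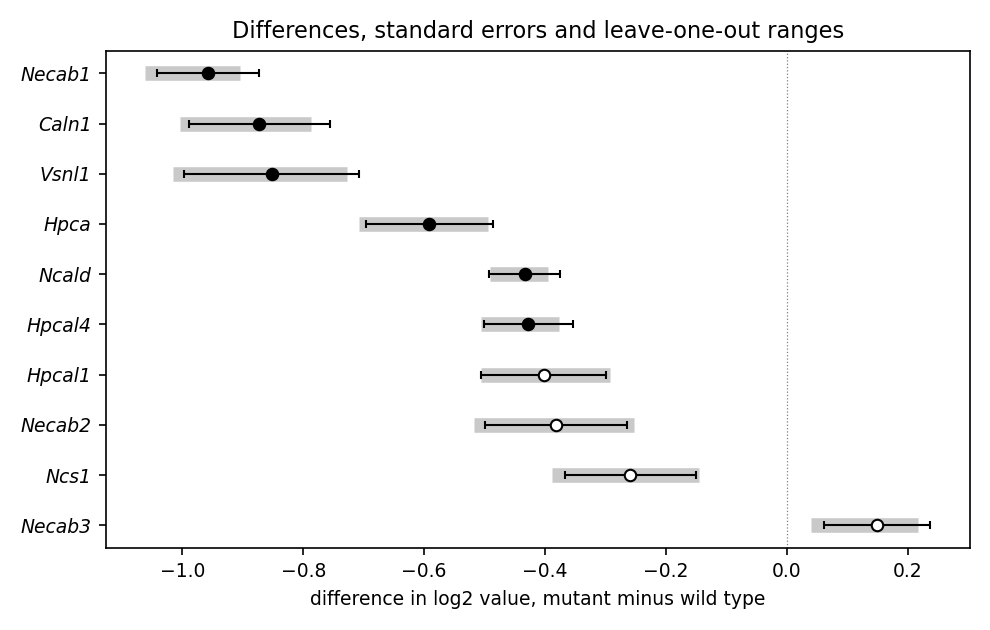
Difference in log2 value, mutant minus wild type (horizontal axis), for each sensor gene, with bars for ± 1 moderated SE, grey bands for the range with each array left out in turn, and filled circles for called genes. Necab1, Caln1 and Vsnl1 lie between -0.96 and -0.85, 6 genes lie between -0.59 and -0.26, and Necab3 lies above 0.

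In order of size, Necab1, Caln1 and Vsnl1 differed from one another by less than the sum of their standard errors, as did Hpcal4, Ncald, Hpcal1 and Necab2. The arrays were ordered alike in most members. Among the wild types replicate 1 was highest in 9 of the 10 genes, and among the mutants replicate 1 was highest in 8 and replicate 3 lowest in 8. Over all 967 rows called lower, wild-type replicate 1 was the highest wild type in 52.4%, mutant replicate 1 the highest mutant in 67.2% and mutant replicate 3 the lowest in 69.6%. Over all rows these shares were 43.8%, 35.6% and 41.7%. The mutants varied more than the wild types in 9 of the 10 members, all but Necab3, with median SDs of 0.22 and 0.08. The mutant SD was the larger in 48.8% of all rows. In the lists described below, it was the larger in 68.1% of 72 related calcium genes and 71.4% of 14 neuron markers. For the 14 cycling-cell markers this share was 35.7%.

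Among 19937 other genes, the profiles nearest to the 3 members with the largest differences were sought by the root mean square difference over the 6 arrays. Necab1 lay nearest to Grm3, a metabotropic glutamate receptor gene, at 0.080, then to Caln1 at 0.090 and Cacng3, an AMPA receptor auxiliary subunit gene, at 0.091. Caln1 lay nearest to Grm3 at 0.055, Vsnl1 at 0.057 and the adhesion gene Cntn1 at 0.058. Vsnl1 lay nearest to Caln1 at 0.057, Adap1 at 0.067 and Fxyd7 at 0.074. These distances, in log2 units, rest on 6 arrays that share the contrast between genotypes.

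Genomic span, taken as a class from a RefSeq gene table of GRCm38.p6, varied within the family. Caln1, Ncald, Necab1, Vsnl1 and Hpcal1 span more than 100 kb, and their differences ran from -0.96 to -0.40 with a median of -0.85. The 5 shorter genes, Hpca, Hpcal4, Ncs1, Necab2 and Necab3, ran from -0.59 to 0.15 with a median of -0.38. Called lower were 4 of the 5 long and 2 of the 5 short members, and 16.5% of 2294 long and 2.82% of 17562 shorter genes on the array. The short members called were Hpca and Hpcal4. The part of span in the sensor differences was not tested.

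Related calcium genes were taken from 6 lists, which were drawn up with some results of these data known. The counts and p-values given for these lists are therefore a description. Of 72 measured genes, 26 fell, 0 rose and 46 did not pass, and their median difference was -0.19. By comparison, 4.13% of all rows were called lower. The count of 26 became 13 or 11 on omitting wild-type replicate 1 or 2, and 7 or 17 on omitting mutant replicate 2 or 3. It was 23 without wild-type replicate 3 and 35 without mutant replicate 1. Among the 6 measured relatives in the potassium channel interacting and visual branches of the family, Kcnip2 fell by 0.56 ± 0.08 (limma adjusted p = 0.0105). Its paralogs Kcnip4 at -0.38, Kcnip1 at -0.26 and Kcnip3 at -0.05 did not pass, and the photoreceptor genes Rcvrn and Guca1a were at 0.02 and 0.04. That list's median was -0.16, and after cyclic loess normalization it was -0.0392. Kcnip2 was not called without mutant replicate 2, and 3 genes of the list were called without mutant replicate 1.

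The calcium-binding genes closest to calneuron and calmodulin differed less. Among the 8 measured, 0 were called by limma, 2 were lower at an unadjusted p under 0.05, and the median was -0.09. The 2 with the smallest p were the calmodulin genes Calm3, at -0.20, and Calm2, at -0.13. Cabp7, which encodes the other calneuron, was at -0.12 ± 0.08 (SE), where Caln1 was at -0.87. Of 9 EF-hand buffers, 3 fell, namely Calb2 (calretinin) at -0.58, S100a1 at -0.44 and Calb1 (calbindin) at -0.34, with a list median of -0.10. Parvalbumin, encoded by Pvalb, was at 0.00 and S100b at -0.06. Without wild-type replicate 2, 1 of the buffer genes was called, and without mutant replicate 1, 4 were.

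Of 16 measured binding partners of the sensors, 6 fell, with a list median of -0.16. Grm5, a glutamate receptor bound by Necab2, fell by 0.73 ± 0.09 (limma adjusted p = 0.00715). Kcnd2, the potassium channel that assembles with the Kcnip proteins, fell by 0.62. The other 4 were Trpc5, a channel that binds Ncs1, at -0.58, Syt1, the vesicle calcium sensor, at -0.38, and Drd2 and Il1rapl1, partners of Ncs1, at -0.32 and -0.29. The 10 that did not pass ran from -0.32 for the nicotinic receptor gene Chrna4 to 0.09 for Grk1. Among them Pi4kb, the lipid kinase acted on by Ncs1 and calneuron, was at 0.04, and the myristoyltransferase genes Nmt1 and Nmt2 were at -0.09 and -0.14. Without mutant replicate 2 none of the 16 was called, and without wild-type replicate 1 or 2 it was 3. Without mutant replicate 1 the count was 8. At an unadjusted p under 0.05 by limma, 10 were lower with all arrays.

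Calmodulin targets and proteins that hold calmodulin in reserve had negative differences in all 14 measured genes, where 10113 of all 23410 rows were negative. Called lower were 8 of the 14, against 4.13% of all rows, with a list median of -0.24. Adcy1, a calcium-activated adenylyl cyclase, fell by 0.76 ± 0.08 (limma adjusted p = 0.00453), and the calmodulin-holding genes Nrgn and Gap43 had differences of -0.68 and -0.22. The calmodulin kinase genes Camk2d, Camk2b and Camk4 stood at -0.59, -0.57 and -0.55, the cyclase Adcy8 at -0.47 and the calcineurin subunit gene Ppp3ca at -0.25. Omitting wild-type replicate 1 or 2 gave a list count of 4, and omitting mutant replicate 1, 2 or 3 gave 9, 3 or 5. Of 19 pumps, exchangers and store channels, 8 fell, with a list median of -0.22. They were Slc24a3, a potassium-dependent sodium-calcium exchanger gene, at -0.73, the plasma membrane pumps Atp2b3, Atp2b1 and Atp2b2 at -0.50, -0.47 and -0.42, Ryr2 at -0.46, Slc8a1 and Slc8a3 at -0.44 and -0.31 and Orai2 at -0.22. The list count was 3 or 2 on omitting wild-type replicate 1 or 2, and 10, 2 or 4 on omitting mutant replicate 1, 2 or 3.

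**Figure D3:**
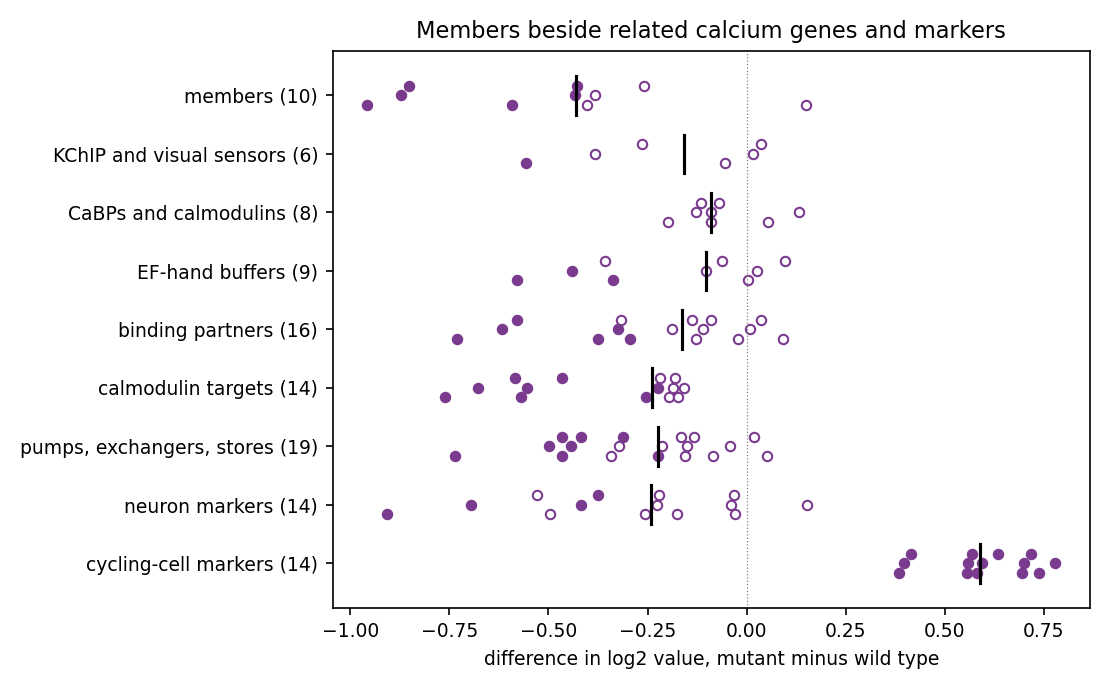
Difference in log2 value, mutant minus wild type (horizontal axis), of single genes in the sensor family, 6 lists of related calcium genes and 2 marker lists, with the number of genes in parentheses, filled circles for called genes and black lines for medians. Medians run from -0.43 in the sensor family to -0.09 in the calcium-binding proteins and calmodulins, and the cycling-cell markers lie above 0.

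Markers of cell types moved in the same arrays. Of 14 neuron markers, Thy1, Eno2, Snap25 and Syt1 fell, against 4.13% of all rows called lower. Their differences were -0.91, -0.69, -0.42 and -0.38, and 10 markers did not pass. The median of the 14 was -0.24, and Syt1 is also among the binding partners above. The 10 ran from -0.53 for the neurofilament gene Nefl to 0.15 for Elavl4, with Stmn2 at -0.22, Uchl1 at -0.23 and Tubb3, Map2 and Dcx between -0.04 and -0.03. The mean centred value of the 14 markers ranged from 0.045 to 0.165 in the wild types and from -0.334 to -0.034 in the mutants, and that of the sensors from 0.108 to 0.263 and from -0.478 to -0.143. All 14 measured markers of cycling cells rose, against 2.34% of all rows called higher, among them Bub1 with a difference of 0.78, Kif11 with 0.74 and Mki67 with 0.56. Their mean ran from -0.417 to -0.201 in the wild types and from 0.212 to 0.369 in the mutants. Without mutant replicate 2, 3 cycling markers and none of the neuron markers were called, and without wild-type replicate 2, 12 and none. The neuron count was 1 on omitting wild-type replicate 1, and 9 or 2 on omitting mutant replicate 1 or 3. The part of the neuron and cycling-cell shares in the differences of the sensor genes was not tested, and since values are centred it cannot be said which markers were near background.

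Marker lists of other cell types were shorter, and over all rows 4.13% were called lower and 2.34% higher. Sparcl1, Aqp4 and Gja1 fell among 7 astrocyte markers, Olig1 and Pdgfra among 6 of the oligodendrocyte lineage, Cldn5 among 6 of endothelium and Ogn among 6 of meninges. The 4 astrocyte markers that did not pass were Slc1a2 at 0.03, Gfap at 0.07, Slc1a3 at -0.26 and Aldh1l1 at -0.31. Hbb-y and Hba-x rose among 4 red-cell genes, with differences of 3.79 and 1.44, and the count was 2 with any 1 array left out. The 2 red-cell genes that did not pass were Hbb-bh1 at 0.135 and Alas2 at -0.07. The astrocyte and endothelial counts were each 0 when wild-type replicate 1 or 2 was omitted, and again when the omitted array was mutant replicate 2 or 3. The oligodendrocyte count was 0 on omitting wild-type or mutant replicate 2, and 1 when either wild-type replicate 1 or 3, or else mutant replicate 3, was omitted. Omitting mutant replicate 1 gave 4 astrocyte and 3 oligodendrocyte calls. The meningeal call was lost on omitting mutant replicate 2. By limma, 0 of 7 microglial and 0 of 4 choroid plexus markers were called, with 1 and 0 at an unadjusted p under 0.05. Medians were -0.28 for astrocytes, -0.20 for the oligodendrocyte lineage, -0.03 for endothelium, -0.17 for meninges, 0.79 for red cells, -0.02 for microglia and -0.05 for choroid plexus. Their part in the sensor differences was not tested.

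**Figure D4:**
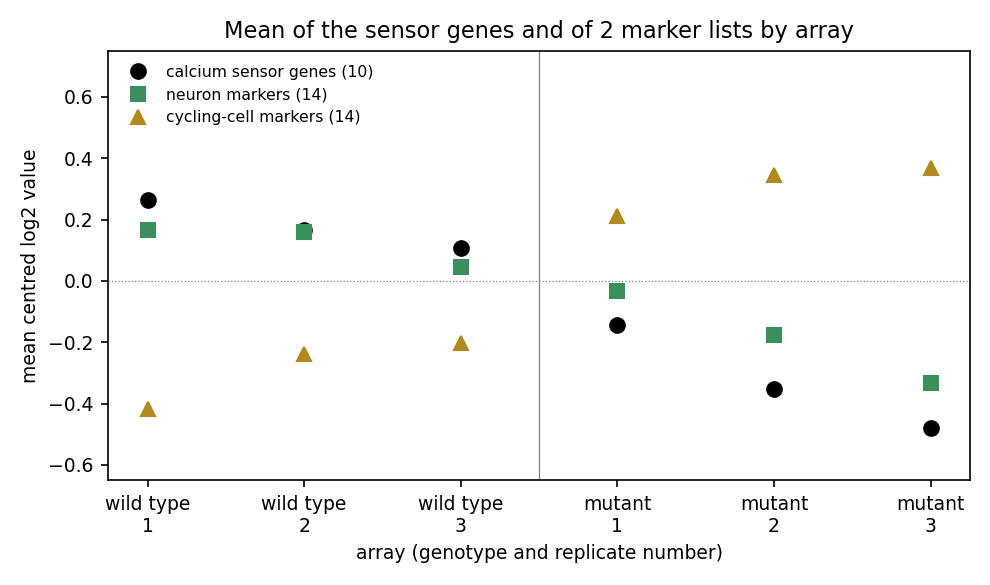
Mean centred log2 value (vertical axis) of the 10 sensor genes, 14 neuron markers and 14 cycling-cell markers in each array (horizontal axis). The sensors and neuron markers are lower, and the cycling-cell markers higher, in every mutant than in every wild type.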

How the data were processed

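RNA of 6 whole brains was hybridised, 1 brain to an array, to Affymetrix Mouse Gene 1.0 ST arrays. Deposited values are on a log2 scale. Per the series text the authors normalized them by Robust Multi-Array Average, with Affymetrix Expression Console as the software per the submitters' processing notes. Row medians over the 6 arrays were 0 to within 5e-07, a centring no source describes, so no filter on dim rows was possible. The log base is that of the method and is not stated in the table. No source used here gives the build behind the annotation.

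Rows were named through the platform annotation, with 21789 of 28856 naming 1 gene, 1621 several and 5446 none. Symbols were updated by gene identifier through RefSeq (GRCm38.p6) for 21698 rows. The 23410 rows naming a gene were fitted with limma 3.58.1 in R 4.3.3 (lmFit and eBayes, two-sided, Benjamini-Hochberg), without covariates, and errors of differences are its moderated standard errors. The members and lists were chosen with earlier results of these data known. Named were all members, Tdp2, called list genes (or the 2 of smallest p) and the 3 nearest profiles; other values named were chosen after they were seen. For lists the row with most accessions stood for a gene. Some listed genes were not analysed here.

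Labels call the arrays biological replicates, and their number limits the precision. The fit was tested on simulated data of 23410 rows in 5 rounds, where 96.0% of 1.5-fold and 99.8% of 2-fold changes were recovered and 3.35% of calls were false. Noise there was normal and independent between rows, and row SDs were drawn toward their mean on the log scale. The members had a median mutant SD of 0.22 against 0.06 over all rows, so these rates need not hold for them. The series text speaks of 3 independent pairs without saying what a pair shares, and the replicate numbers were not used as a block. Figures were drawn with matplotlib 3.10.9.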

Additional observations from a re-analysis of the deposited data

How the results depend on the processing

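Called rows numbered 1515, of which 63.8% were lower, and between 145 and 2501 with 1 array left out. Called members lower numbered between 2 and 9, and calcium-list genes between 7 and 35, in those fits. Array weights gave 5425 rows (51.3% lower), 47 calcium-list genes lower and 1 higher, and called Hpcal1 (-0.42), Ncs1 (-0.26) and Necab2 (-0.38). The 1.5-fold limit left 150 rows and 6 calcium-list genes. A plain t-test left 0 rows, 0 members and 0 calcium-list genes after adjustment, though 4078 rows and 7 members had an unadjusted p under 0.05. Under it the differences of Vsnl1 (-0.85), Hpca (-0.59), Hpcal4 (-0.43), Ncald (-0.43), Necab1 (-0.96) and Caln1 (-0.87) were not called. Cyclic loess turned the sign of Ncs1 (0.11) and Necab2 (0.0281). It also shrank the differences of Necab1 (-0.68), Caln1 (-0.74), Vsnl1 (-0.58) and Hpca (-0.40), which stayed called. The cause was not tested. Cyclic loess was run on the centred values, where the row average it fits along does not follow abundance.

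With each array left out the differences ranged from -1.02 to -0.73 for Vsnl1, -0.71 to -0.50 for Hpca, -0.51 to -0.29 for Hpcal1, -0.51 to -0.38 for Hpcal4, -0.39 to -0.15 for Ncs1, -0.52 to -0.25 for Necab2 and -1.004 to -0.79 for Caln1. With the replicate block, 2400 rows were called, and Hpcal1 (-0.40) and Necab2 (-0.38) also passed. Lower calls then numbered 32 among calcium-list genes, 8 among neuron markers and 5 among astrocyte markers. Same-numbered arrays deviated from their group means with correlations of 0.209, 0.047 and 0.198. Mutant replicate 2 correlated best with wild-type replicate 3, at 0.057, and every other array correlated best with its own number. Equal array medians, all rows and the robust prior changed no member's call. The filter on dim rows was not run, since levels are centred away.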
